A study of Mus musculus with 6 samples.

Results

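Myosin light chains are the small calmodulin-like subunits that wrap around the neck of a myosin heavy chain, and 10 of their genes were followed here in embryonic mouse hearts with a double knockout of the RNA-binding proteins RBPMS and RBPMS2, which the submitters describe as specific to cardiomyocytes. The genes were chosen by symbol, and all 10 were found, with 1 row each, among the 48709 genes of the deposited table. They cover the fast muscle chains (Myl1, Mylpf), the ventricular chains (Myl2, Myl3), the atrial chains (Myl4, Myl7), and the chains of smooth muscle and non-muscle myosin (Myl6, Myl9, Myl12a, Myl12b). Double knockout hearts carried RBPMS flox/flox and RBPMS2 flox/flox alleles with an XML Cre transgene. Control hearts were of littermates with the same floxed alleles and no Cre. Both groups were C57BL6/J embryos, with 3 polyA RNA libraries each. No group carried Cre alone, so an effect of Cre cannot be told apart from loss of the genes, and floxed alleles were shared by both groups. The promoter that drives XML Cre, the embryonic stage, the part of the heart taken and any pooling of embryos were not stated. Whether a library stands for 1 embryo is also not stated.

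Each myosin heavy chain binds an essential and a regulatory light chain. The essential chain stiffens the lever arm of the motor. The regulatory chain can be phosphorylated by light chain kinases and dephosphorylated by a phosphatase, which in smooth muscle and non-muscle cells switches the motor on and off and in the heart adjusts force. Striated muscle uses a set of chains that changes with chamber and stage: Myl4 and Myl7 are present throughout the early heart tube of the mouse and later become atrial, while Myl2 marks ventricular muscle.

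Values are normalised read counts as deposited, taken to be reads per gene scaled by 1 factor per library and rounded. They summed to between 19770390 and 20215282 per library. Fold changes are differences of log2(value + 1), double knockout minus control, from limma over all 26747 tested genes, and an adjusted p is Benjamini-Hochberg adjusted over all of them, with 0.05 as the threshold. Rbpms had 721, 699 and 670 in double knockout libraries and 3551, 3853 and 3956 in controls, and Rbpms2 had 1676, 1257 and 1429 in double knockout libraries and 2444, 2571 and 2716 in controls. Both targeted genes were lower in every double knockout library than in any control. Xist was at 20 in double knockout 3 and 6 in control 3 and at 19501 to 25229 elsewhere, and the Y-linked Eif2s3y was at 1569 and 1207 in these libraries and at 0 to 4 elsewhere. The libraries numbered 3 therefore had a male pattern and the other libraries a female one, with 1 male-pattern library in each group.

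Of the 10 light chain genes, 5 were lower in the double knockout and 0 were higher. Among all tested genes 2.55% were called lower and 2.31% higher, 4.86% in either direction. Among the 4663 genes with a mean of at least 1000, 5.02% were lower. The genes that fell were Myl1, Myl9, Myl6, Mylpf and Myl7, of fast muscle, smooth or non-muscle, and atrial type. The ventricular chains Myl2 and Myl3 differed by less than the spread between libraries. In the 5 genes that fell, no double knockout library reached the level of any control library, a separation found in the lower direction for 10.6% of all tested genes. The median log2 fold change was -0.50 over the 10 genes and 0.02 over all tested genes. At an unadjusted p under 0.05, 0 of the 10 genes were higher, against 9.72% of all tested genes, and 6 were lower, against 9.0%.

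**Figure D1:**
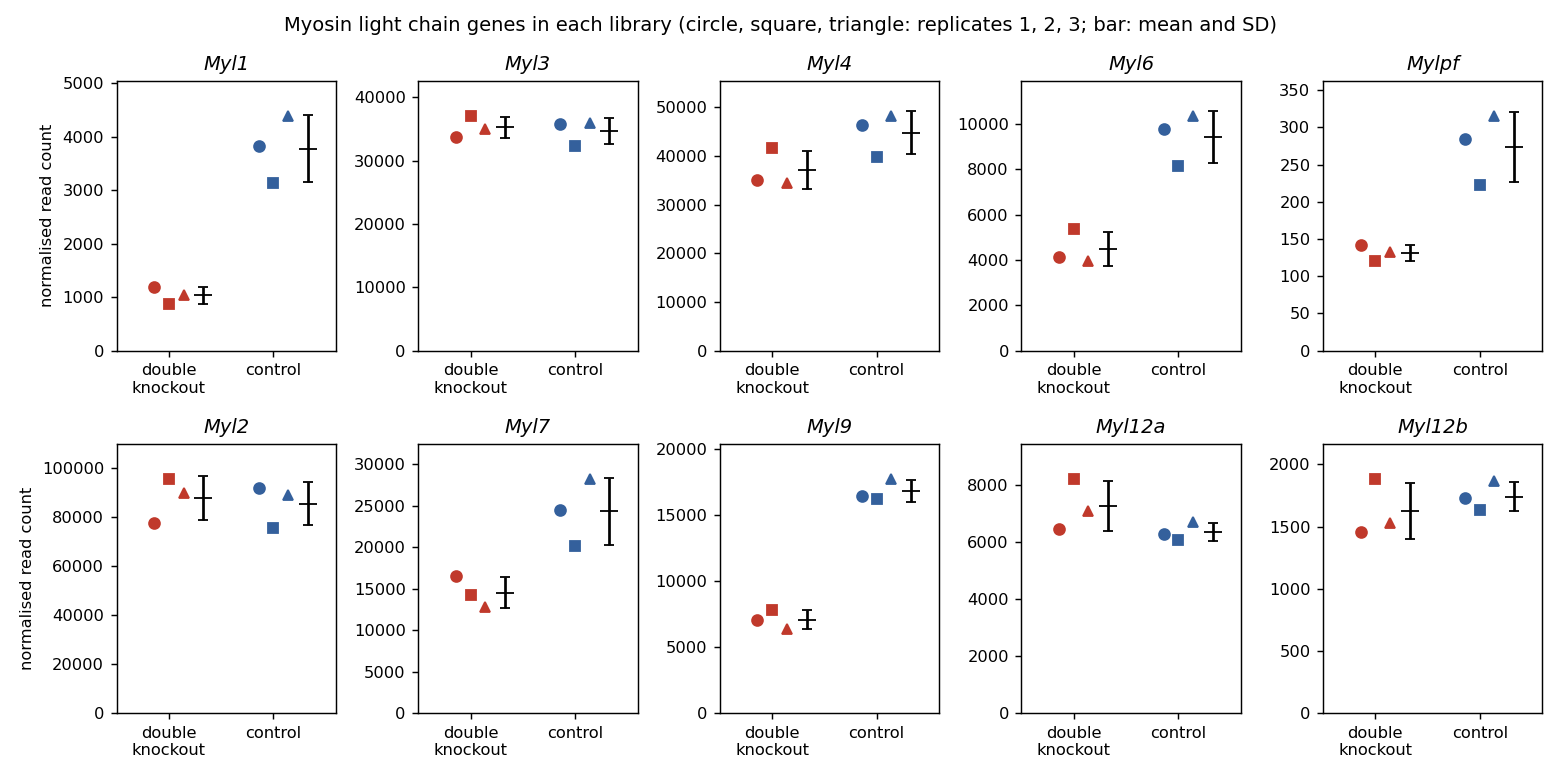
Normalised read counts (y axis, linear from 0) of each light chain gene in the 3 double knockout libraries (red) and the 3 control libraries (blue), with mean and SD beside them. Essential chains and Mylpf are in the top row and the other regulatory chains below. Myl1, Myl6, Myl7, Myl9 and Mylpf show groups apart from each other, and the groups overlap in Myl2, Myl3, Myl4, Myl12a and Myl12b.

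The start regions of several of these genes hold a CArG box, the 10-base element bound by serum response factor, a transcription factor of muscle and cytoskeletal genes. All 10 genes had a RefSeq promoter entry (GRCm38.p6), with 12 start sites in all. A CArG box, searched on both strands in the 250 bases before each start, was found for Myl6, Myl7 and Myl9, which fell, and for Myl3, which did not pass the test. Over 19717 such windows of protein-coding genes, 1.31% held one. The 250 bases before the start of those 4 genes are shown 5′ to 3′ on the gene's strand, with the box in capitals.
Myl9, chr2:156775214-156775463, plus strand: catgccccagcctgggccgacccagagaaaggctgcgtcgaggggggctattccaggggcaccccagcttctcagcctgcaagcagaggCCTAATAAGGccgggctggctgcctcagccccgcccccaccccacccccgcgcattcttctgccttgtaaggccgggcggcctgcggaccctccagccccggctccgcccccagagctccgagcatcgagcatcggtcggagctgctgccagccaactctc
Myl7, chr11:5898783-5899032, minus strand: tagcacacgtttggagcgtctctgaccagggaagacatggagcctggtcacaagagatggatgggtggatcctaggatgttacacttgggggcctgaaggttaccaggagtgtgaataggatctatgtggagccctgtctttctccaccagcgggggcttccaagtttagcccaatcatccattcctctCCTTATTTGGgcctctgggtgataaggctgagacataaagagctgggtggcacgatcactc
Myl6, chr10:128493010-128493259, minus strand, the inner of its starts: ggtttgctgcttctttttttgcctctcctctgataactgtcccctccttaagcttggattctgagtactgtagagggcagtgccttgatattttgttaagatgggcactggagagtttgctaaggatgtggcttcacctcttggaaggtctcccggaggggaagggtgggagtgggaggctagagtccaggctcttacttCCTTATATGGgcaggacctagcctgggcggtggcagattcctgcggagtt
Myl3, chr9:110763428-110763677, plus strand: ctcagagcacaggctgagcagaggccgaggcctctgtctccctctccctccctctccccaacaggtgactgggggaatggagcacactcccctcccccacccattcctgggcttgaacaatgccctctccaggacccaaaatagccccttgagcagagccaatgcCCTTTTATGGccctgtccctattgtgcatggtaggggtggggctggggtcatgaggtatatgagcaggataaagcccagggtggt
The box begins 161 bases before the start in Myl9, 61 in Myl7, 50 in Myl6 and 85 in Myl3. No CArG box was found in the windows of Myl1, Mylpf, Myl4, Myl2, Myl12a or Myl12b, and none at the outer start of Myl6. Both Myl2 windows lie upstream of its annotated gene body in GENCODE M21, so the bases next to the start of that gene body were not searched. Myl1 had 1 window, which covers 1 of its alternative starts. The window of Myl4 lies at the outer end of its gene body, so any inner start was not searched. The windows of Myl3 and Mylpf lie inside their gene bodies, so the outer ends of these were not searched. Whether a box goes with the change of a gene was not tested. The MEF2 site, another muscle element, was found in none of the 12 windows and in 2.58% of all windows. TATAAA on either strand was in 1 window of Myl1 and 1 of Myl2, against 11.2% of all windows. A GATA site was found for Myl1, Myl2, Myl6 and Myl7, against 23% of all windows. An E box (CANNTG) was found for Myl1, Myl2, Myl3, Myl6, Myl7, Mylpf and Myl12a, against 62.5% of all windows. A match describes letters only; binding was not measured.

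Among the essential chains, Myl1, the fast skeletal chain made from a pair of alternative promoters, changed most. It lies on chromosome 1 (66924295 to 66945404, minus strand, mm10). It had 1196, 867 and 1037 in double knockout libraries, against 3820, 3138 and 4386 in controls. Every double knockout library was far below every control library. The means were 1033.3 ± 165 in double knockouts and 3781.3 ± 625 in controls (SD, n = 3 each), which is a log2 difference of -1.87 ± 0.13 (SE; limma adjusted p = 5.51e-06). No other gene of the 10 changed by as much. The values sum both promoters' products, so they do not show which form fell. Of the 75-base stretches in its coding transcripts, 11.2% also occur in the pseudogene Mylf-ps, and reads from those may have been split or dropped.

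Myl6, the essential chain of smooth muscle and non-muscle myosin, was 2.10-fold lower in double knockouts by the ratio of means. It lies on chromosome 10 (128490860 to 128494145, minus strand). It had 4127, 5349 and 3975 in double knockout libraries and 9770, 8130 and 10346 in controls. Double knockout 2 was the highest of its group and still below control 2, the lowest control. The means were 4483.7 ± 753 in double knockouts and 9415.3 ± 1149.8 in controls (SD, n = 3 each), giving a log2 difference of -1.08 ± 0.12 (limma adjusted p = 4.62e-05). Without both libraries numbered 3 the change was -0.92 and the call was lost (limma adjusted p = 0.110). In that smaller fit the targeted gene Rbpms2 lost its call as well (-0.79, limma adjusted p = 0.142). Over all genes that fit called 14 higher and 24 lower. Transcripts of Myl6 differ by an alternative exon between smooth muscle and non-muscle forms, which gene sums do not show. Of its 75-base stretches, 11% also occur in other genes, mostly the pseudogene Gm5526. The neighbouring gene Myl6b, an essential chain of early muscle and non-muscle cells, had 80, 57 and 71 in double knockouts and 55, 65 and 62 in controls, with overlapping groups (limma adjusted p = 0.647). Myl10, a further regulatory chain gene, was at 2, 1 and 0 in double knockouts and 3, 3 and 2 in controls, too low to compare.

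The cardiac essential chains did not pass the test. Myl3, the ventricular and slow muscle chain on chromosome 9 (110741861 to 110769798, plus strand), had 33730, 37029 and 34988 in double knockouts and 35734, 32279 and 36013 in controls. The groups overlapped throughout. Its log2 fold change was 0.02, with a 95% interval of -0.15 to 0.20 (limma adjusted p = 0.901). Myl4, the atrial and fetal chain on chromosome 11 (104550663 to 104595753, plus strand), had 35124, 41566 and 34435 in double knockouts and 46286, 39700 and 48129 in controls. Double knockout 2 lay above control 2, so the groups overlapped by that library. Its log2 fold change was -0.27, with a 95% interval of -0.47 to -0.07, and it did not pass the threshold over all genes (limma adjusted p = 0.117). It passed when double knockout 2 was left out (-0.36, limma adjusted p = 0.0234).

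Of the regulatory chains, Myl9, the chain of smooth muscle myosin, had the lowest adjusted p of the 10 genes. It lies on chromosome 2 (156775420 to 156781658, plus strand). It had 7061, 7843 and 6422 in double knockout libraries, against 16498, 16218 and 17759 in controls. The libraries of a group lay close together and the groups far apart. The means were 7108.7 ± 712 in double knockouts and 16825.0 ± 821 in controls (SD, n = 3 each), giving a log2 difference of -1.25 ± 0.09 (limma adjusted p = 4.42e-08). This call was kept in each of the 18 alternative fits, as was that of Myl1.

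The smooth muscle and mural marker list is given beside Myl9, since heart tissue holds vessels. Without Myl9, 0 of its 12 genes were higher and 4 were lower: Acta2, Cnn1, Smtn and Des. For this and each marker list below, the shares over all tested genes were 2.31% higher and 2.55% lower. Acta2 (smooth muscle actin) and Cnn1 (calponin) are also made by embryonic cardiomyocytes, and Des (desmin) is a muscle-wide filament. The summed level of the list was 33703 to 39220 in double knockouts and 65216 to 69903 in controls. Acta2 weighs heavily in these sums, at 4673 to 6843 in double knockouts and 24630 to 28547 in controls. Myh11, the heavy chain that defines differentiated smooth muscle, was at 11 to 13 in double knockouts and 13 to 26 in controls. The mural cell receptor Pdgfrb had 1162, 1329 and 983 in double knockouts and 1016, 1207 and 887 in controls, with overlapping groups. Tagln and Notch3 were lower without overlap between groups, but did not pass (limma adjusted p = 0.163 and 0.218). Of the 12 genes, 9 had a log2 fold change below 0, and their median was -0.37. Fewer cells of a type and less RNA per cell cannot be told apart in these whole-tissue libraries, and the part of mural cells in the change of Myl9 was not tested. Without both libraries numbered 3, Acta2 and Cnn1 kept their calls and Smtn and Des lost theirs (limma adjusted p = 0.180 and 0.376).

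Myl7, the atrial regulatory chain, fell less. It lies on chromosome 11 (5896637 to 5898782, minus strand). It had 16545, 14289 and 12766 in double knockout libraries and 24496, 20186 and 28200 in controls. The groups did not overlap, and both spread more than in Myl9. The means were 14533.3 ± 1901.3 in double knockouts and 24294.0 ± 4010.8 in controls (SD, n = 3 each), giving a log2 difference of -0.74 ± 0.12 (limma adjusted p = 0.00226). The call was lost without the robust option of the fit (limma adjusted p = 0.0669) and without both libraries numbered 3, where the change was -0.53 (limma adjusted p = 0.259).

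Of 11 atrial markers other than the light chains, 0 were higher and 4 were lower in the double knockout: Kcnj5, a potassium channel subunit, Nr2f1, a nuclear receptor of atrial identity, Stard10, a lipid transfer protein, and Mybphl, a myosin-binding protein. None of the 4 kept its call without both libraries numbered 3 (limma adjusted p = 0.0737 to 0.382). Of the 11 genes, 7 had a log2 fold change below 0, and their median was -0.42. The summed level of the 11 genes was 18299 to 24093 in double knockouts and 18666 to 21194 in controls, so the sums overlapped. Bmp10, a growth factor of atrial and trabecular muscle, had 5635, 3993 and 7111 in double knockouts and 4312, 4169 and 4100 in controls, and the groups overlapped (limma adjusted p = 0.367). Bmp10 and Nppa, which had 6996 to 9847 in double knockouts and 6647 to 8727 in controls, weigh heavily in the sums. The sums therefore say little about the other genes of the list. How much atrial tissue each library held was not given, and its part in the change of Myl7 was not tested.

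Myl2, the ventricular regulatory chain on chromosome 5 (122100951 to 122113472, plus strand), was the most abundant of the 10 and ranked 12 among all genes by mean value. It had 77799, 95579 and 89827 in double knockouts and 91740, 75479 and 89019 in controls. The lowest library was control 2 and the highest double knockout 2, and the groups overlapped. The log2 fold change was 0.04, with a 95% interval of -0.16 to 0.24 (limma adjusted p = 0.867). Its sign turned when control 2 (-0.05) or double knockout 2 (-0.03) was left out. Of 9 other ventricular markers, 2 were higher, the gap junction gene Gja1 and the calcium pump regulator Pln, and 1 was lower, the transcription factor Hand1. Hand1 kept its call in 1 of 6 fits with a library left out, and none of the 3 genes passed without both libraries numbered 3 (limma adjusted p = 0.0813 to 0.443). The summed level of the 9, 223456 to 264255 in double knockouts and 221061 to 256004 in controls, overlapped between groups. Myh7 made up most of it, at 189041 to 230962 in double knockouts and 197393 to 231079 in controls. The sum therefore says little about the other genes.

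Mylpf, the regulatory chain of fast skeletal muscle on chromosome 7 (127208890 to 127214298, plus strand), was the least abundant of the 10. It had 142, 120 and 132 in double knockout libraries and 284, 223 and 315 in controls. The double knockout libraries lay close together, and all were below every control. The log2 fold change was -1.04 ± 0.14 (limma adjusted p = 1.35e-04), and it was lost without both libraries numbered 3 (-0.94, limma adjusted p = 0.142).

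Defining genes of skeletal muscle cells were near 0. Pax7 was at 0 in every library, and Myod1, Myog, Myf5 and Myf6, the transcription factors that start the skeletal programme, were below 10 in each. Of the 14 skeletal markers other than Myl1 and Mylpf, 11 were tested, 0 were higher and 2 were lower: Ckm, the muscle creatine kinase, and Tnnt3, fast troponin T. Ckm kept its call in 6 of 6 fits with a library left out and Tnnt3 in 2 of 6, and both lost it without both libraries numbered 3 (limma adjusted p = 0.172 and 0.206). The summed level of the 14 was 903 to 1156 in double knockouts and 908 to 977 in controls. Tnni2, fast troponin I, was the most abundant of them and weighs most in the sum. It had 729, 499 and 684 in double knockouts and 464, 367 and 502 in controls, with overlapping groups. Its log2 fold change was 0.51 (limma adjusted p = 0.0706). The fast and developmental heavy chains Myh1, Myh2, Myh3, Myh4 and Myh8 lay between 13 and 84 in every library, and none passed the test.

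The non-muscle regulatory chains Myl12a and Myl12b, neighbours on the minus strand of chromosome 17 (70993656 to 71002878 and 70973133 to 70990890), did not pass the test. Myl12a had 6475, 8215 and 7105 in double knockouts and 6278, 6091 and 6706 in controls. Its groups overlapped only through double knockout 1, which lay below control 3. The log2 fold change was 0.19, with a 95% interval of -0.01 to 0.38 (limma adjusted p = 0.283). Myl12b had 1461, 1884 and 1531 in double knockouts and 1729, 1631 and 1864 in controls, again with overlapping groups. The log2 fold change was -0.11, with a 95% interval of -0.31 to 0.10 (limma adjusted p = 0.598).

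These 2 genes are near copies. Their coding sequences share 96.5% of bases, and each shares less with Myl9, at 85.7% for Myl12a and 86.4% for Myl12b. Among 75-base stretches of their coding transcripts, 21.7% for Myl12a and 29.8% for Myl12b also occur under another gene identifier. For Myl12b, all 666 of these occur under a second identifier of the same name. For Myl12a, 501 of 635 occur under the name Myl12b. The Myl12b identifiers whose exons overlap these genes on the same strand are absent from the deposited table. The shares therefore do not measure how far reads of the 2 genes were mixed, and their separate values stay uncertain. No 75-base stretch of Myl9, Myl7, Myl2, Myl4 or Mylpf occurs in transcripts of another gene. Exons of Myl12a also overlap 207 bases of Myom1 on the other strand, and the strand setting used in counting was not stated.

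**Figure D2:**
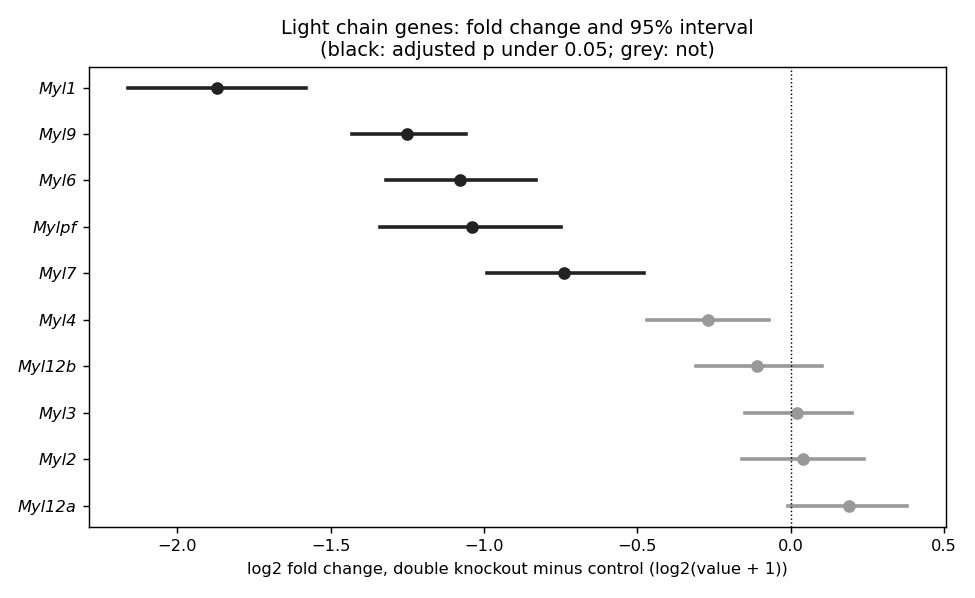
Log2 fold change of each light chain gene, double knockout minus control (x axis), with its 95% interval from the limma fit; black marks an adjusted p under 0.05. Changes run from -1.87 for Myl1 to 0.19 for Myl12a, and the 5 genes in black all lie at -0.74 or below.

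Ratios of a pair of chains within a library do not depend on how that library was scaled. They can still move with a library's trend with GC content. GC content was 54.9% for Myl7 and 50.3% for Myl2, and 51.6% for Myl4 and 51.5% for Myl3. It was 48.9% for Myl1, and 56.6% for Myl9 against 50.4% for Myl12a and 52.2% for Myl12b. The part of GC content in the ratios was not tested. Myl7 over Myl2, the atrial over the ventricular regulatory chain, was 0.213, 0.149 and 0.142 in double knockouts and 0.267, 0.267 and 0.317 in controls. Myl4 over Myl3, the matching essential pair, was 1.04, 1.12 and 0.984 in double knockouts and 1.30, 1.23 and 1.34 in controls. In both pairs every double knockout library was below every control. The log2 difference was -0.77 for the regulatory pair and -0.30 for the essential pair. The fast chain Myl1 over Myl3 was 0.0355, 0.0234 and 0.0296 in double knockouts and 0.107, 0.0972 and 0.122 in controls, a log2 difference of -1.89. Myl9 over the sum of Myl12a and Myl12b, smooth over non-muscle chain, was 0.890, 0.777 and 0.744 in double knockouts and 2.06, 2.10 and 2.07 in controls, a log2 difference of -1.37. In both of these pairs, too, every double knockout library was below every control. All 4 ratios were lower in 3 of 3 double knockout libraries, with a two-sided exact permutation p of 0.1 each (0.1 adjusted over the 4), the smallest that 20 assignments of 3 against 3 allow.

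**Figure D3:**
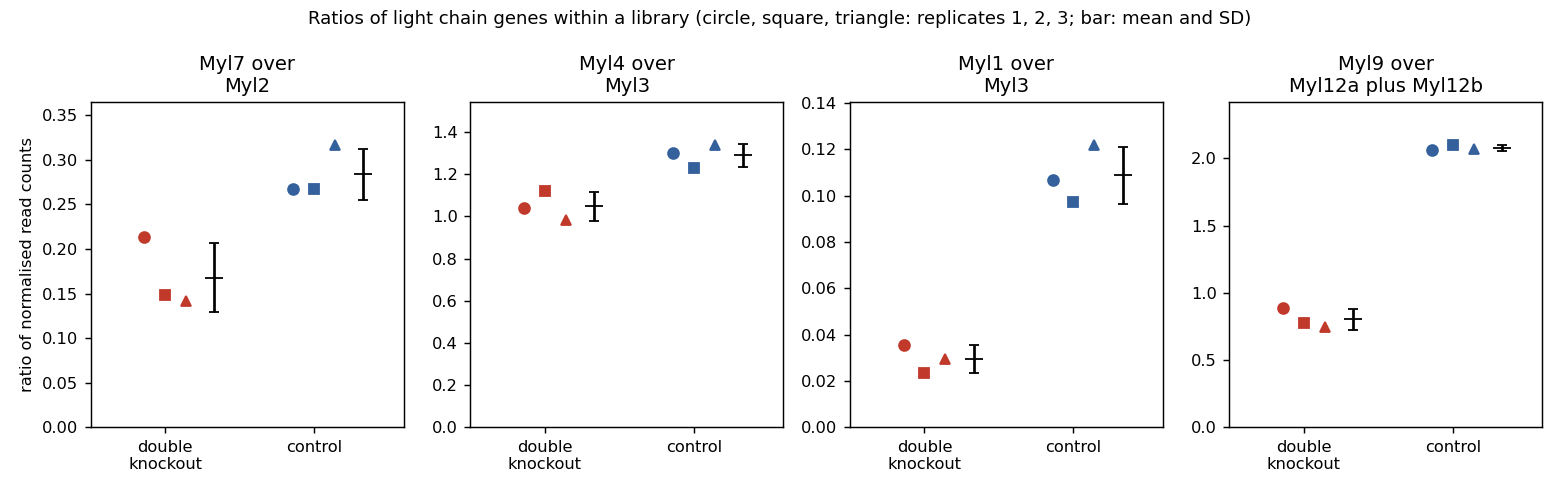
Ratios of normalised read counts of the named light chain genes (y axis, linear from 0) within each double knockout library (red) and each control library (blue), with mean and SD. In each of the 4 panels the double knockout points lie below all control points, most widely for Myl1 over Myl3 and for Myl9 over Myl12a plus Myl12b.

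To compare genes with each other, values were divided by the length of each gene's merged exons. On this per-kb scale Myl2 had the highest level, at 44992.3 ± 4652.7 in double knockouts and 43801.4 ± 4466.5 in controls (SD, n = 3 each), followed by Myl7 at 24632.8 ± 3222.6 in double knockouts and 41176.3 ± 6798.0 in controls. Mylpf was lowest, at 124 ± 10.4 in double knockouts and 258 ± 44.1 in controls. In double knockouts the order of levels per kb was Myl2, Myl7, Myl3, Myl4, Myl9, Myl12a, Myl6, Myl12b, Myl1 and Mylpf, and Myl12b and Myl1 overlapped in their range over libraries. In controls it was Myl2, Myl7, Myl3, Myl9, Myl4, Myl6, Myl12a, Myl1, Myl12b and Mylpf, with overlap between Myl2 and Myl7 and between Myl12a and Myl1. Myl9 thus stood above Myl4 in controls and below it in double knockouts. With the length of the longest coding transcript instead, Myl4 was above Myl9 in both groups, and Myl7 ranked 4 in double knockouts and 3 in controls.

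Shares within each class followed. Among regulatory chains Myl2 made up 57.2% ± 4.51 of the summed level per kb in double knockouts and 42.9% ± 1.88 in controls (SD, n = 3 each). Myl7 made up 31.4% ± 4.53 in double knockouts and 40.1% ± 2.38 in controls, and Myl9 7.77% ± 0.443 in double knockouts and 14.2% ± 1.18 in controls. Shares sum to a whole, and the level of Myl2 itself did not pass the test. Among essential chains Myl3 made up 63.6% ± 1.51 in double knockouts and 54.1% ± 1.38 in controls. Myl1 made up 1.85% ± 0.397 in double knockouts and 5.78% ± 0.514 in controls, and Myl6 5.16% ± 0.526 in double knockouts and 9.39% ± 0.383 in controls. These shares did not overlap between groups, while those of Myl4 did, at 29.4% ± 1.25 in double knockouts and 30.7% ± 0.508 in controls. The levels depend on the length used: merged exons of Myl4 span 4637 bases and its longest coding transcript 943 bases, and per kb of that transcript Myl4 made up 48.7% ± 1.52 of essential chains in double knockouts and 50.6% ± 0.642 in controls, above Myl3. Likewise Myl7 then made up 18.5% ± 3.30 of regulatory chains in double knockouts and 26.2% ± 1.91 in controls. The direction of each non-overlapping share named here was the same with that length.

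**Figure D4:**
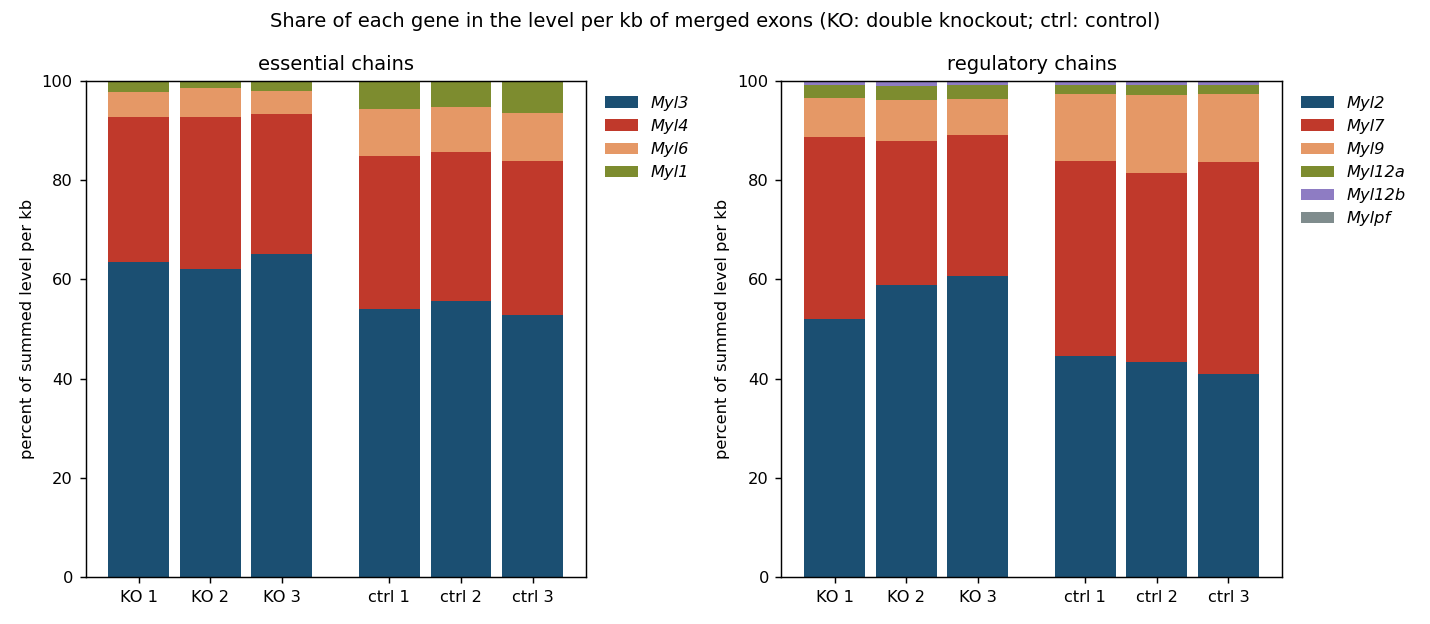
Share of each gene in the summed level per kb of merged exons (y axis, percent) of the essential chains and of the regulatory chains, for each double knockout library (KO) and each control library (ctrl). Myl3 and Myl2 take a larger share in every double knockout than in any control, and Myl1, Myl6, Myl7 and Myl9 a smaller one.

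The myosin heavy chains are the partners that the light chains bind. Of 13 heavy chain genes, 1 was higher and 1 was lower, against 2.31% and 2.55% of all tested genes. Their median log2 fold change was 0.02. Myh6, the alpha cardiac chain, had 90131, 75234 and 73150 in double knockouts and 132314, 149354 and 137865 in controls, giving a log2 difference of -0.82 (limma adjusted p = 1.68e-05). Myh9, a non-muscle heavy chain, had 10049, 8347 and 8236 in double knockouts and 6052, 6817 and 6024 in controls, giving a log2 difference of 0.49 (limma adjusted p = 0.00341). Neither gene's groups overlapped. Myh9 was thus higher while Myl6 and Myl9, which can pair with it, were lower. The call of Myh9 was lost without control 1 (limma adjusted p = 0.0579) and without the robust option (limma adjusted p = 0.0683). Myh10, another non-muscle heavy chain, had 18277, 17814 and 16857 in double knockouts and 15690, 17618 and 15027 in controls. Its groups overlapped (0.13, limma adjusted p = 0.425).

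Of 14 genes for kinases that phosphorylate regulatory chains, 1 was higher and 0 were lower, with a median of 0.02. Among all tested genes, 2.31% were higher and 2.55% lower. Mylk3, the cardiac light chain kinase, had 7025, 5377 and 6346 in double knockouts and 6167, 5837 and 6214 in controls, and Mylk, the smooth muscle and non-muscle kinase, had 371, 484 and 320 in double knockouts and 316, 463 and 383 in controls. Both pairs of groups overlapped; these 2 genes were chosen after their values were seen. The gene called higher, Stk17b, a kinase of the death-associated family, was at the threshold (0.41, limma adjusted p = 0.0497) and kept its call in 1 of 6 fits with a library left out. Of the 7 tested genes of the light chain phosphatase and its inhibitors, 1 was higher and 1 was lower, with a median of -0.08. The shares over all tested genes are those given for the kinases. Ppp1r14c, a phosphatase inhibitor, had 4238, 3569 and 4439 in double knockouts and 2465, 2265 and 2526 in controls, which gives 0.75 on the log2 scale (limma adjusted p = 4.75e-05). Its groups did not overlap. Ppp1r14b, a related inhibitor, had 1742, 2052 and 1766 in double knockouts and 2258, 2191 and 2457 in controls (-0.31, limma adjusted p = 0.0494), and kept its call in 1 of 6 fits with a library left out. Without both libraries numbered 3, none of the 5 called partner and regulator genes passed (limma adjusted p = 0.102 for Ppp1r14c, 0.107 for Myh6 and higher for the rest). Phosphorylation of the chains was not measured.

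**Figure D5:**
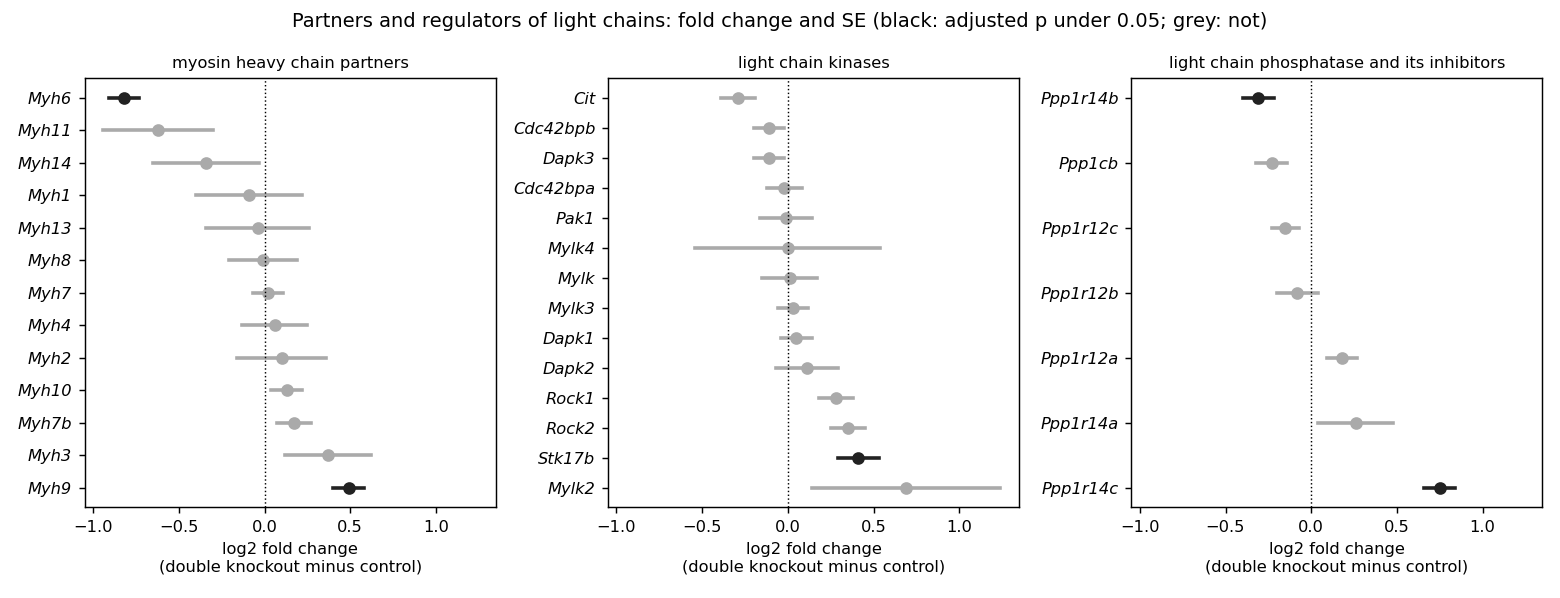
Log2 fold change, double knockout minus control (x axis), with its SE for the tested heavy chain genes, light chain kinases, and phosphatase subunits and inhibitors; black marks an adjusted p under 0.05. The 5 genes in black are Myh6 at -0.82, Myh9 at 0.49, Stk17b at 0.41, Ppp1r14b at -0.31 and Ppp1r14c at 0.75. Myh11 at -0.62 and Mylk2 at 0.69 lie farther from 0 than Myh9 but have wide errors and did not pass.

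Genes with the most similar profile over the 6 libraries were taken from 11434 protein-coding genes whose mean reached 50, by the root mean square difference of centred log2 values. For Myl1 they were Casq1, which stores calcium in the sarcoplasmic reticulum, at 0.155, Kcnmb1, a potassium channel subunit, at 0.184, and Kcnj6, another potassium channel gene, at 0.212. For Myl9 they were Kirrel2 at 0.0773, Sel1l3 at 0.0865 and Pcp4l1 at 0.105. Those of Myl6 were Wnt2, a secreted signalling protein, at 0.114, Tubb4a, a tubulin, at 0.121, and Lrrn2 at 0.122. Those of Mylpf were Qprt at 0.0904, Lrrn2 at 0.0979 and Aldh1b1, a mitochondrial dehydrogenase, at 0.108. Those of Myl7 were Enox1 at 0.104, Cacna1d, a calcium channel gene also used by atrial and pacemaker cells, at 0.105, and Fndc3c1 at 0.107. No light chain gene was among the nearest 3 of these 5 genes.

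Some measures of the libraries moved with genotype beside these results. How far a gene lay from its mean over the libraries varied with its GC content: over 11905 genes, Spearman's rho was 0.13, -0.18 and -0.59 in double knockouts 1 to 3 and 0.28, 0.22 and 0.40 in controls 1 to 3. With the trend of GC content and transcript length removed per library, all 5 genes kept their calls, with changes between -1.84 for Myl1 and -0.61 for Myl7. Of 9 cardiomyocyte markers, 0 were higher and 2 were lower, Myh6 and Actc1, with summed levels of 390483 to 435121 in double knockouts and 531021 to 570976 in controls. Neither passed without both libraries numbered 3 (limma adjusted p = 0.107 and 0.172). These 2 genes were the highest of the list in controls and weigh heavily in its sums. Actc1 alone had 124462 to 136201 in double knockouts and 178253 to 193011 in controls. All 9 cardiomyocyte markers had a log2 fold change below 0, with a median of -0.17. Tnnt2 and Nkx2-5 were also lower without overlap between groups, but did not pass (limma adjusted p = 0.264 and 0.109). Of the markers of other cell types, none of 8 for fibroblasts, 7 for endothelium, 5 for epicardium and 7 for erythroid cells passed the test, and 1 of 5 for leukocytes, Ptprc, was higher. The call of Ptprc was lost without control 3, without double knockout 3 (limma adjusted p up to 0.0655 with 1 library left out) and without both (limma adjusted p = 0.275). The part of GC content and of cell composition in the light chain changes was not tested beyond these values. By sex pattern, Myl1 differed by -2.08 between the libraries numbered 3 alone and by -1.76 in the female-pattern libraries, Myl9 by -1.47 and -1.14, Myl6 by -1.38 and -0.92, Mylpf by -1.25 and -0.94, and Myl7 by -1.14 and -0.53. Each of the 5 genes was thus lower in both, and with 1 male-pattern library per group the difference between the patterns was not tested.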

How the data were processed

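RNA of 6 embryonic mouse heart libraries was sequenced; per the labels' protocols, strand-marking polyA libraries were made from 500 ng of RNA and read as single ends of 75 bases. Per the submitters' processing notes, DESeq, DESeq2, featureCounts 1.5.0, STAR 2.4.2a, Trimmomatic and mm10 were involved, with no role given. The authors deposited a score: read counts scaled per library and rounded. This was read from the values, since 3 libraries lack low whole numbers at regular steps (on average every 139 in control 2, every 21.2 in control 3 and every 18.7 in double knockout 1). Single reads could not be recovered, so no count model was used and precision at low values is that of small counts.

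Genes whose mean reached 1 in either genotype entered a two-sided limma 3.58.1 fit in R 4.3.3, using log2(value + 1) and trended, robust moderation; the scale understates fold changes of low genes. Members and lists were chosen with earlier results of these data known. All 10 genes are named; from related lists, up to 4 called genes with the lowest adjusted p, or the 2 most abundant where none passed; and 3 genes of similar profile per called gene, leaving out predicted models. Other named list genes were chosen after their values were seen. Coordinates, lengths and GC content are from GENCODE M21 (GRCm38, the assembly of mm10; 99.3% of identifiers matched), promoters from RefSeq, and alignments from Biopython 1.88. Libraries of a genotype correlated at 0.983 to 0.986 (Pearson's r across genes), and no pair was identical. The spread behind each p-value is that between libraries, which may be technical. Alternatives were rescaling, filters, pseudocounts, moderation, voom weights, replicate block, GC and length trend, gene length and left-out libraries.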

Additional observations from a re-analysis of the deposited data

How the results depend on the processing

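Of the 5 calls, those of Myl1 and Myl9 held in each of 18 alternative fits, and all 5 kept their direction in each and their calls with each single library left out. Without both libraries numbered 3, 2 of the light chain genes were lower (Myl1, adjusted p = 0.0224, and Myl9, adjusted p = 0.0146, limma), with 14 genes higher in double knockout and 24 genes lower in double knockout. With the GC and length trend removed, 1 light chain gene was higher: Myl12a, at 0.23 (limma adjusted p = 0.0464; main adjusted p = 0.283, range over alternatives 0.0464 to 0.566). With ordinary moderation in place of the robust option, 144 were higher and 206 lower, with 4 light chain genes lower in double knockout. With no filter 963 genes were higher, and Myl4 passed (limma adjusted p = 0.00529). With single libraries left out, the genes called higher numbered 186 to 608 and those called lower 234 to 739, against 618 and 681 with all 6; the lowest counts came without control 3 (186 and 234), control 1 (218 and 263) and double knockout 3 (195 and 301). The light chain genes lower numbered 5 to 6 in these fits and those higher 0. The cause of these shifts was not tested. With the replicate block 674 genes were higher and 681 lower, and the same 5 light chain genes were lower. Deviations of same-numbered libraries were hardly correlated (r 0.00, 0.02 and 0.04), though both libraries numbered 3 had a male pattern. Whether a number marks a shared litter or batch was not stated, and these r values cannot decide it. With either rescaling the median log2 fold change was 0.004, over the 25963 or 26140 genes that then passed the filter. It was 0.015 over the 26747 genes of the main fit. In every alternative run for the ratios, their log2 differences stayed below 0. They lay between -0.96 and -0.58 for Myl7 over Myl2 and between -0.35 and -0.22 for Myl4 over Myl3. For Myl1 over Myl3 they lay between -2.04 and -1.74, and for Myl9 over Myl12a plus Myl12b between -1.45 and -1.32. Removal of the GC and length trend was not among the alternatives run for the ratios. Shares per kb moved with the gene length in most cases, as the text gives for Myl4 and Myl7. The 3 libraries per genotype and rounding limit changes of genes at low values.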
